A study of Mus musculus with 36 samples.

Results

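Afp, H19, Igf2, Gpc3, Dlk1, Mdk, Igf2bp3 and Bex4 are genes of the fetal liver or of embryonic tissue. Most of them are low in the adult organ, and several are known to return in liver tumours. These 8 genes were followed, with every probe that carries one of their symbols, over 36 single-colour bead arrays of FVB/n mouse liver in 10 groups. A probe was named here for 7 of the 8 genes, 13 probes in all, and 6 genes had a probe that was detected often enough to be tested among 10765 genes. A probe for H19 was not named here, so H19 was not analysed here, and the Dlk1 probe did not rise above background on any array.

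The tumours carried AKT together with either NRAS or CAT, as the labels write the driver genes. CAT is not spelled out there, nor is the way in which the genes were brought into the liver. Tumour groups of 4 arrays each were AKT-NRAS with DDC (Tu_AKTNRAS_DDC), AKT-NRAS without treatment (Tu_AKTNRAS), AKT-CAT with DDC (Tu_AKTCAT_DDC), AKT-CAT with CCl4 (Tu_AKTCAT_CCl4) and AKT-CAT without treatment (Tu_AKTCAT). Non-tumoral AKT-CAT liver was taken with DDC (NonTu_AKTCAT_DDC, 3 arrays), with CCl4 (NonTu_AKTCAT_CCl4, 4 arrays) and without treatment (NonTu_AKTCAT, 3 arrays). Liver without driver genes had received DDC (DDC_only, 3 arrays) or PBS (PBS_only, 3 arrays). DDC is a porphyrin-inducing compound that injures bile ducts, and CCl4, carbon tetrachloride, is poisonous to hepatocytes around the central vein. Age, sex, dose and time are not in the labels used here, and nothing there says that arrays of a group came from separate mice, so the p-values measure the spread between these samples only. Non-tumoral AKT-NRAS liver was not analysed here.

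In the fetal liver, hepatoblasts make alpha-fetoprotein, encoded by Afp, as their main plasma protein, and the gene is shut off within weeks of birth. The growth factor gene Igf2 and the noncoding RNA gene H19 are imprinted neighbours that share enhancers and fade together after birth. Gpc3 encodes a proteoglycan on the surface of the cell, Dlk1 a membrane protein of the Delta family that marks hepatoblasts, Mdk the secreted heparin-binding cytokine midkine, and Igf2bp3 a protein that binds Igf2 and other RNAs in embryos. Bex4 belongs to the brain-expressed X-linked family and is less studied in liver. In human hepatocellular carcinoma, alpha-fetoprotein and glypican-3 are used as tumour markers.

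The regions around the annotated starts of the 4 genes on which most results turn are printed here to show how unlike they are, since Afp, Gpc3 and Bex4 were higher in AKT-NRAS than in AKT-CAT tumours and Igf2bp3 was not called so. Each sequence runs from 250 bases before to 50 bases after the start, 5′ to 3′ on the strand of the gene, from RefSeq on GRCm38.p6. Capitals mark matches, on either strand, to the motif TATAAA of the general transcription machinery, to GTTAAT, which is one arm of the palindrome bound by HNF1, to CCAAT, which NF-Y binds, to GGGCGG, known as the GC box, and to CACGTG, the E box.
Afp, chr5:90490464-90490763, plus strand: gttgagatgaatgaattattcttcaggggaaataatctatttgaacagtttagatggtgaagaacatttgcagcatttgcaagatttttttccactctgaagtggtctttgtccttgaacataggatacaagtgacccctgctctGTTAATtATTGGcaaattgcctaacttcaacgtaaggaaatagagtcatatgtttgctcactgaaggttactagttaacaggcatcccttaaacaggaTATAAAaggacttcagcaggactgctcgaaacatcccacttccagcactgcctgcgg
Gpc3, chrX:52613925-52614224, minus strand: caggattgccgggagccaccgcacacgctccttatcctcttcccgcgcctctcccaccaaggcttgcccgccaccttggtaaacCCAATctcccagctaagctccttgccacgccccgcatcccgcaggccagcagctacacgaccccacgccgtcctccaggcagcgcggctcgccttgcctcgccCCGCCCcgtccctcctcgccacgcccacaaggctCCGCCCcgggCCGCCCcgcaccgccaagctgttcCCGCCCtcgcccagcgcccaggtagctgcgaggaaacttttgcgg
Bex4, chrX:136138746-136139045, plus strand: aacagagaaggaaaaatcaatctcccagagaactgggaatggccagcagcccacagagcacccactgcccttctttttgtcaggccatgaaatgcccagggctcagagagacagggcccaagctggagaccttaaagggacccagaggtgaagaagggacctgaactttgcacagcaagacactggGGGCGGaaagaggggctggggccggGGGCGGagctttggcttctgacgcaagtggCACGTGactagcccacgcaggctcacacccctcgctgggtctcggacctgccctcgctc
Igf2bp3, chr6:49214905-49215204, minus strand: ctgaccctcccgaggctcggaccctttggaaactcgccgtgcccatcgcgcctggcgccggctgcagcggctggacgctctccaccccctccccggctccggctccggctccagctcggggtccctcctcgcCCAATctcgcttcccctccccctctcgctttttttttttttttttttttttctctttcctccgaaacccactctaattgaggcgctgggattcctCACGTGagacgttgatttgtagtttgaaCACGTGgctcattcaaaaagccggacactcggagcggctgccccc

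The Afp sequence had a GC content of 40%, below the lower quartile of 45.7% over 32851 mouse promoters of the same length (median 52.7%, upper quartile 61.7%). It held 1 TATAAA, found in 13.6% of these promoters, 7 bases before the annotated start, and 1 GTTAAT, found in 7.1% of them, 105 bases before it. The 1 CCAAT match of Afp, at 98 bases before the start on the opposite strand, overlapped no other match, and the motif was in 37.4% of promoters. Gpc3 had a GC content of 70.7%, above the upper quartile, with 4 GGGCGG matches on the opposite strand, where 35.7% of promoters held at least 1, and 1 CCAAT. Bex4 (60%) had 2 GGGCGG and 1 CACGTG, and Igf2bp3 (60.3%) had 1 CCAAT and 2 CACGTG, a motif of 7.15% of promoters. Among the 4 printed regions TATAAA and GTTAAT were thus in that of Afp only, which says nothing of which proteins bind there.

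All 36 arrays entered 1 limma fit with a term for each group, and a gene was called at an adjusted p under 0.05 (Benjamini-Hochberg over 10765 genes). Levels are log2 intensities after background correction and quantile normalization, on which values of about 4.4 to 5.1 are those of probes at background. Between 10688 and 13101 of 25697 probes were detected per array, and arrays of a group correlated at 0.96 to 0.9921. All 8 AKT-NRAS arrays were on 1 slide and all 8 CCl4 arrays on another. NRAS thus cannot be told apart from its slide in any comparison with AKT-CAT, DDC_only or PBS_only, nor CCl4 from its slide. DDC_only and PBS_only were on slide 1, NonTu_AKTCAT_DDC on slide 2 and NonTu_AKTCAT on slide 3. Only Tu_AKTCAT_DDC (slides 1 and 2) and Tu_AKTCAT (slides 2 and 3) were on more than 1 slide. NonTu_AKTCAT_DDC thus shared no slide with NonTu_AKTCAT, nor PBS_only with Tu_AKTCAT or NonTu_AKTCAT. Hepatocyte markers were high in each group, and their summed intensity was 139000 to 190000 in Tu_AKTNRAS, against 152000 to 184000 in Tu_AKTCAT. Levels are those of whole tissue, in which fewer cells of a type and less RNA per cell cannot be told apart.

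In untreated tumours, 4 of the 6 members tested were higher in AKT-NRAS than in AKT-CAT (Afp, Gpc3, Igf2 and Bex4), where 37.4% of all genes tested were called in either direction. Under DDC, Mdk joined them and 5 of 6 were higher in AKT-NRAS tumours, against 39.3% of all genes. Against liver without driver genes, 5 of 6 were higher in Tu_AKTNRAS than in PBS_only (Afp, Gpc3, Igf2, Igf2bp3 and Bex4; 50% of all genes) and 4 of 6 in Tu_AKTNRAS_DDC than in DDC_only (Afp, Gpc3, Igf2bp3 and Bex4; 37.4%). With calls this frequent over all genes, the counts alone do not set the members apart. Afp passed the detection filter through its 8 AKT-NRAS arrays alone and had to differ there, and the other 5 genes were detected on 25 to 36 arrays. The 4 comparisons share their AKT-NRAS arrays by pairs.

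**Figure D1:**
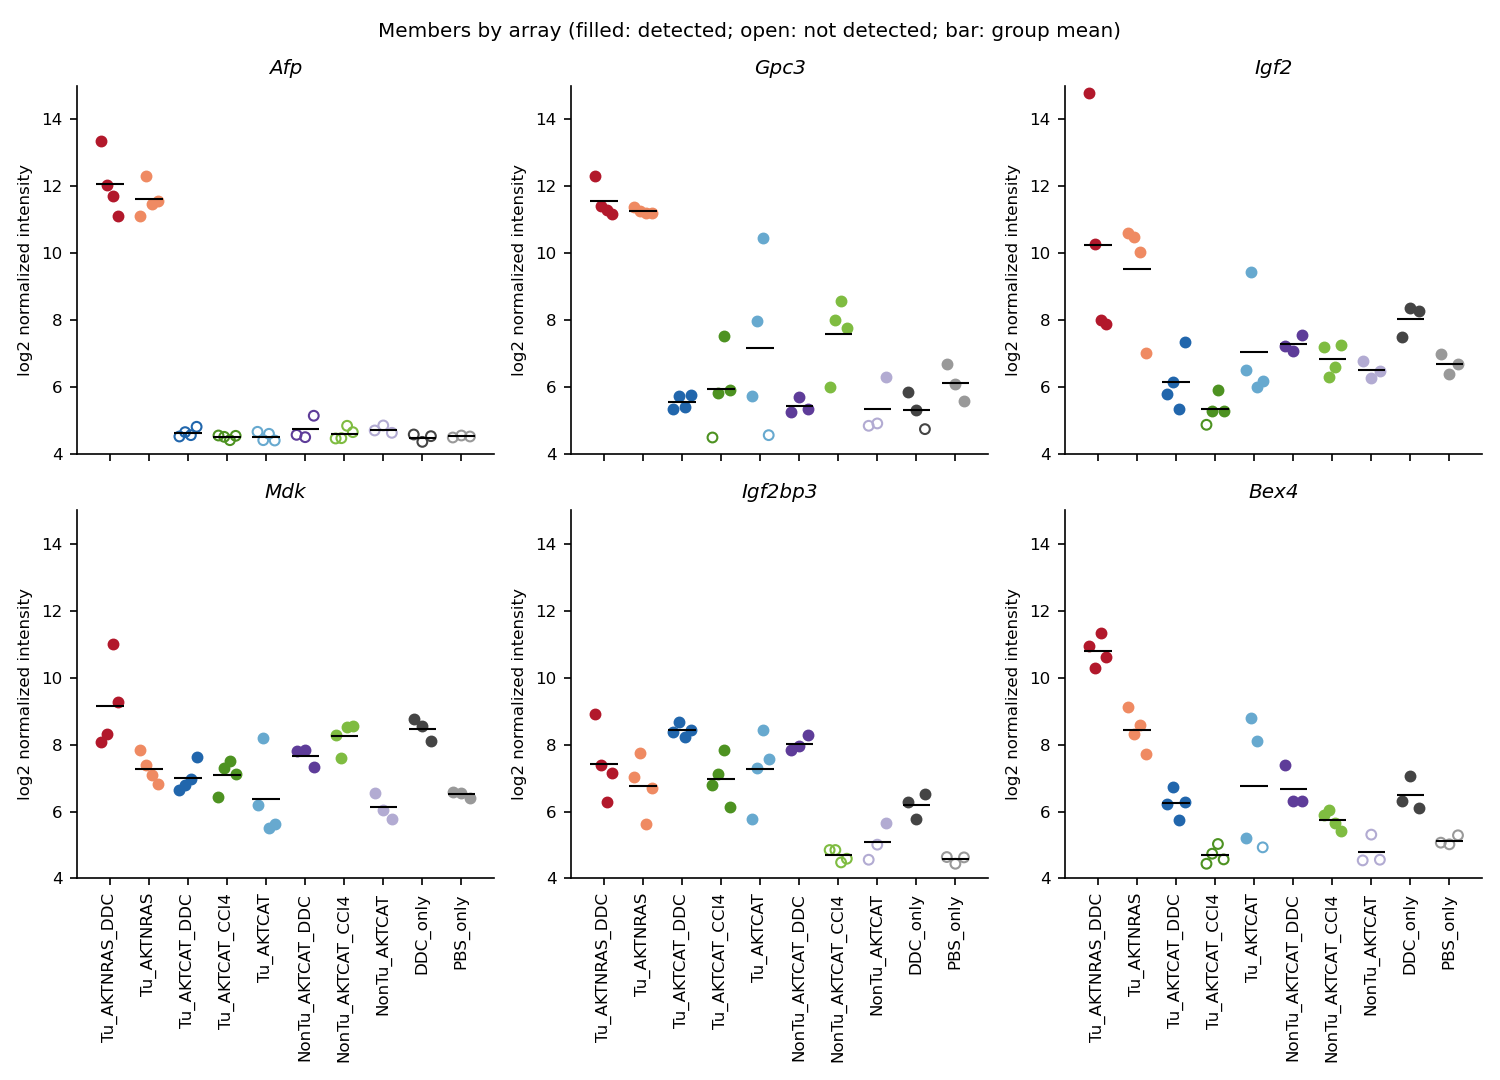
Log2 normalized intensity (vertical axis) of the probe in use for 6 genes on each of the 36 arrays, by group (horizontal axis). Filled points were detected (p under 0.05), open points were not, and bars are group means. Afp is filled only in the 2 AKT-NRAS groups, and Igf2bp3 has its highest group mean in Tu_AKTCAT_DDC.

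Afp was at background on all 28 arrays outside the AKT-NRAS tumours and high on all 8 inside them. The probe (ILMN_1245472; gene on chromosome 5) read 13.36, 12.05, 11.70 and 11.13 in Tu_AKTNRAS_DDC and 11.13, 12.31, 11.48 and 11.57 in Tu_AKTNRAS. On the other 28 arrays it read 4.37 to 5.15 and was detected on none. The gap between the lowest AKT-NRAS array and the highest of the others was thus wide and no groups overlapped across it.

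Afp was at least 91.2-fold higher in Tu_AKTNRAS than in Tu_AKTCAT, the bound being set by the lowest detected intensity of the AKT-CAT arrays. Under DDC the bound was 123-fold in Tu_AKTNRAS_DDC over Tu_AKTCAT_DDC. Both were called (limma adjusted p = 2.86e-19 and 4.97e-20), as a gene that entered the test through these arrays alone had to be. Against liver without driver genes it was at least 73-fold higher in Tu_AKTNRAS than in PBS_only and at least 123-fold higher in Tu_AKTNRAS_DDC than in DDC_only. These bounds hold only at the offset of 16 used in normalization. At an offset of 50 the fitted fold of Tu_AKTNRAS was 55.7 over both Tu_AKTCAT and PBS_only. That of Tu_AKTNRAS_DDC was then 73 over Tu_AKTCAT_DDC and 76.1 over DDC_only. DDC itself made no called difference in AKT-NRAS tumours, at 12.06 ± 0.95 with DDC and 11.62 ± 0.49 without (SD, n = 4 each; log2 difference 0.44 ± 0.26, SE; limma adjusted p = 0.554). No DDC or CCl4 liver and no AKT-CAT tumour, whatever its treatment, brought Afp above background.

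The genes whose levels were most like that of Afp over the 36 arrays were Akr1c18, a steroid reductase gene (Pearson r = 0.99), Tmem45a (0.97) and Rgs2, a regulator of G-protein signalling (0.97). Such r describe arrays that share groups and slides. Over the 8 AKT-NRAS arrays alone the r of Afp was -0.29 with Akr1c18, -0.11 with Tmem45a and 0.73 with Rgs2. Akr1c18 averaged 11.78 ± 0.41 in Tu_AKTNRAS_DDC and 11.42 ± 0.32 in Tu_AKTNRAS (SD, n = 4 each), and 4.46 to 4.8 in the group means of the others.

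Afp stands in a cluster of albumin-type genes on chromosome 5, and the adult members of this cluster were higher in AKT-NRAS tumours as well. Alb, the gene of serum albumin, was higher in Tu_AKTNRAS than in Tu_AKTCAT by 1.51 ± 0.35 on the log2 scale (limma adjusted p = 0.000934), and in Tu_AKTNRAS_DDC than in Tu_AKTCAT_DDC by 3.31 ± 0.35 (limma adjusted p = 5e-09). Afm, which encodes the vitamin E carrier afamin, was higher by 1.64 ± 0.25 without DDC and by 3.37 ± 0.25 with it. Unlike Afp, both were detected in every group. The Alb probe read low, since Alb and Afm together summed to 1700 to 2310 in PBS_only. The 10 tested hepatocyte markers, Alb among them, summed to 173000 to 181000 there. How well this probe reads albumin RNA was not tested. Alb averaged 9.61 ± 0.38 in Tu_AKTNRAS, against 8.91 ± 0.23 in PBS_only, a difference that was not called. The DDC effect on both genes differed between the drivers, since Alb was lower in Tu_AKTCAT_DDC (6.38 ± 0.86) than in Tu_AKTCAT (8.09 ± 0.76) while the AKT-NRAS means were 9.69 ± 0.28 with DDC and 9.61 ± 0.38 without (difference of DDC effects 1.80 ± 0.49, limma adjusted p = 0.038).

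Of 17 tested regulators of Afp and H19 transcription, 2 were higher and 2 lower in Tu_AKTNRAS than in Tu_AKTCAT. For this and each later list in these comparisons, the shares over all genes were 20.6% higher and 16.9% lower. Under DDC they were 21% and 18.3%. Zhx2, the gene behind a mouse strain difference in the shut-off of Afp after birth, was higher by 1.41 ± 0.40 (limma adjusted p = 0.0056), at 7.23 ± 0.21 in Tu_AKTNRAS, 5.81 ± 0.31 in Tu_AKTCAT and 7.32 ± 0.84 in PBS_only (SD). Under DDC the Zhx2 means were 7.29 ± 0.29 in Tu_AKTNRAS_DDC and 7.03 ± 0.47 in Tu_AKTCAT_DDC, which was not called. Zfhx3, which encodes another repressor of Afp, had a difference of 0.03 ± 0.22 without DDC and 0.34 ± 0.22 with it, neither called. Cebpa, a factor of mature hepatocytes, was lower in Tu_AKTNRAS than in Tu_AKTCAT (log2 difference -1.67; 6.49 ± 0.13 against 8.15 ± 0.66; limma adjusted p = 0.000172). Tbx3 was lower (log2 difference -2.97) and Gata6, a gene of early liver development, higher by 1.62. Zbtb20, which encodes a further repressor of Afp, was not among the genes tested.

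Gpc3, on the X chromosome, was high on each AKT-NRAS array and variable elsewhere. It read 12.32, 11.43, 11.29 and 11.17 in Tu_AKTNRAS_DDC, against 5.35 to 5.78 in Tu_AKTCAT_DDC. It read 11.38, 11.27, 11.20 and 11.22 in Tu_AKTNRAS, against 5.75, 7.98, 10.45 and 4.57 in Tu_AKTCAT. The AKT-NRAS arrays did not overlap those of AKT-CAT with either treatment, though the third untreated AKT-CAT tumour came within reach of them and the fourth was not detected. Gpc3 was 63.1-fold higher in Tu_AKTNRAS_DDC than in Tu_AKTCAT_DDC (log2 5.98 ± 0.72, limma adjusted p = 6.2e-08) and 16.9-fold higher in Tu_AKTNRAS than in Tu_AKTCAT (4.08 ± 0.72, limma adjusted p = 4.19e-05). The untreated difference was 5.17 without Tu_AKTCAT replicate 3 and 3.21 without replicate 4, called in both. Over liver without driver genes it was 75.8-fold higher with DDC and 35.1-fold higher without. DDC_only read 4.75 to 5.86, near background, and 2 of its 3 arrays detected Gpc3. The fold of Tu_AKTNRAS_DDC over DDC_only was 40.8 at an offset of 50 and 115 with the authors' normalized values. Over Tu_AKTCAT_DDC it was 37 at an offset of 50.

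The second Gpc3 probe moved with the first (r = 0.99 over 36 arrays) and gave 6.11 ± 0.65 with DDC and 4.07 ± 0.65 without. After the AKT-NRAS groups the order of group means was NonTu_AKTCAT_CCl4 (7.60), Tu_AKTCAT (7.19), PBS_only (6.13), Tu_AKTCAT_CCl4 (5.94), Tu_AKTCAT_DDC (5.57), NonTu_AKTCAT_DDC (5.44), NonTu_AKTCAT (5.36) and DDC_only (5.31). Neighbours in this part of the order overlapped. Genes most like Gpc3 over the 36 arrays were Mrpl13, of the mitochondrial ribosome (r = 0.90), Klhl13 (0.89) and Afp (0.88). Their r was -0.13, 0.72 and 0.85 over the 8 AKT-NRAS arrays alone, and that of Afp was -0.04 over the other 28.

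Gpc3 was also higher in NonTu_AKTCAT_CCl4 than in NonTu_AKTCAT, at 6.0, 8.01, 8.59 and 7.78 against 4.85, 4.92 and 6.31, of which the first 2 were not detected. The groups overlapped, the difference was 4.72-fold (log2 2.24 ± 0.78, limma adjusted p = 0.0418), and the second probe gave 1.90 ± 0.70 (limma adjusted p = 0.0545). The call was lost without NonTu_AKTCAT replicate 1 or 2 (adjusted p = 0.14 and 0.135) or without NonTu_AKTCAT_CCl4 replicate 2, 3 or 4 (0.0767, 0.12 and 0.0776). Markers of the mesothelium, the sheet of cells that covers the liver, moved with it. Of 5 tested mesothelial markers 4 were higher in NonTu_AKTCAT_CCl4 (Wt1, Upk1b, Msln and Upk3b). Wt1 averaged 7.88 ± 0.98 there, against 4.93 ± 0.78 in NonTu_AKTCAT (SD). The summed intensity of all 5, the keratin gene Krt8 among them, was 4450 to 8290 against 2590 to 4820 in NonTu_AKTCAT. The part of these markers in the Gpc3 value was not tested. Xist, which is expressed from the inactive X chromosome, averaged 6.93 ± 0.73 in NonTu_AKTCAT_CCl4 and 7.38 ± 0.54 in Tu_AKTCAT_CCl4, against 8.71 to 9.36 in the group means of the others, and its part in the levels of the X-linked Gpc3 and Bex4 under CCl4 was not tested.

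Among glypicans, syndecans and their enzymes, 3 of 11 tested genes were higher and 1 lower in Tu_AKTNRAS than in Tu_AKTCAT, with a median log2 difference of 0.07 against 0.04 over all genes. Gpc4, the neighbour of Gpc3 on the X chromosome, was higher by 1.35 ± 0.20 without DDC and by 1.78 ± 0.20 with it. Notum, an enzyme that cuts glypicans and inactivates WNT proteins and is itself a target of WNT signalling, was lower in AKT-NRAS tumours, with log2 differences of -4.22 without DDC and -2.28 with it. Sdc2 was higher by 0.51 and by 1.45.

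Igf2, on chromosome 7, was higher in AKT-NRAS tumours but varied widely from array to array. It read 14.78, 10.27, 8.02 and 7.90 in Tu_AKTNRAS_DDC, against 5.79, 6.16, 5.36 and 7.36 in Tu_AKTCAT_DDC. It read 10.60, 10.49, 10.03 and 7.01 in Tu_AKTNRAS, against 6.53, 9.45, 6.01 and 6.18 in Tu_AKTCAT. The groups were apart under DDC and overlapped without it, where the fourth AKT-NRAS array was low and the second AKT-CAT array high.

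Igf2 was 16.8-fold higher in Tu_AKTNRAS_DDC than in Tu_AKTCAT_DDC (log2 4.07 ± 0.91, limma adjusted p = 0.00055), and 5.60-fold higher in Tu_AKTNRAS than in Tu_AKTCAT (2.49 ± 0.91, limma adjusted p = 0.0314). Under DDC the difference was 2.56 (5.9-fold, adjusted p = 0.00388) without Tu_AKTNRAS_DDC replicate 1, which read highest, and 4.81 or 4.85 without replicate 3 or 4. Without DDC it was 3.29 without Tu_AKTCAT replicate 2 and 3.33 without Tu_AKTNRAS replicate 4. The untreated call was lost without Tu_AKTCAT replicate 1, 3 or 4 (adjusted p = 0.0721, 0.0918 and 0.0879) and without Tu_AKTNRAS replicate 1, 2 or 3 (0.0966, 0.0916 and 0.074). Over PBS_only, which read 6.99, 6.39 and 6.71, the Tu_AKTNRAS difference was 2.83 ± 0.99 (7.13-fold, limma adjusted p = 0.0171), lost without PBS_only replicate 2 or Tu_AKTNRAS replicate 1 or 2 (0.0546, 0.0539 and 0.0509) and at 3.68 without Tu_AKTNRAS replicate 4. DDC_only read 7.50, 8.37 and 8.29, and the Tu_AKTNRAS_DDC difference from it was not called (2.19 ± 0.99, limma adjusted p = 0.0812). It was called without Tu_AKTNRAS_DDC replicate 3 or 4 (adjusted p = 0.0234 and 0.0206).

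No comparison within AKT-CAT or within liver without driver genes called Igf2 in the fit over all arrays. That fit holds 1 spread per gene, and the Igf2 SD was highest in the AKT-NRAS groups. The arrays did not overlap in DDC_only against PBS_only (1.35 ± 1.05), in NonTu_AKTCAT_DDC against NonTu_AKTCAT (0.78 ± 1.05) or in Tu_AKTCAT_CCl4 against NonTu_AKTCAT_CCl4 (-1.49 ± 0.91). For the last of these, a fit on the compared groups alone did call Igf2, as given below. After the AKT-NRAS groups (10.24 ± 3.21 with DDC and 9.53 ± 1.70 without, SD) its group means ran from DDC_only (8.05), NonTu_AKTCAT_DDC (7.30), Tu_AKTCAT (7.04), NonTu_AKTCAT_CCl4 (6.84), PBS_only (6.70), NonTu_AKTCAT (6.51) and Tu_AKTCAT_DDC (6.17) to Tu_AKTCAT_CCl4 (5.34). Each neighbour in this order overlapped the next. Genes most like it over the 36 arrays were Cltrn (r = 0.82), Gprc5a (0.80) and Clic6 (0.79). Their r was 0.78, 0.76 and 0.57 over the 8 AKT-NRAS arrays alone.

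Few other genes of the IGF axis were higher with Igf2. Of 14 tested ligands, receptors and binding proteins other than Igf2, 2 were higher and 4 lower in Tu_AKTNRAS than in Tu_AKTCAT, and under median scaling of the arrays this became 4 higher and 2 lower. Igf1, the growth factor of the adult liver, had a log2 difference of -2.07 (10 ± 0.76 against 12.08 ± 0.52, SD; limma adjusted p = 1.35e-05), and Igfals, which holds IGF1 in the serum complex, one of -2.22. Igfbp1, which encodes a binding protein that rises in stressed liver, was higher by 3.47 ± 0.81 without DDC, and under DDC no Tu_AKTCAT_DDC array detected it while all 4 of Tu_AKTNRAS_DDC did. The Igf1 mean was 9.64 ± 0.80 in Tu_AKTNRAS_DDC and 10.24 ± 0.74 in Tu_AKTCAT_DDC, a difference that was not called. Igf2r, the receptor that clears IGF2, differed between the drivers by -0.17 ± 0.20 without DDC and 0.08 ± 0.20 with it, neither called, and Igf1r was near background on most arrays.

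Of 13 other imprinted genes of fetal tissues that were tested, 1 was higher and 2 were lower in Tu_AKTNRAS than in Tu_AKTCAT, and 4 were higher and 2 lower under DDC. Cdkn1c, a growth-restraining gene of the same imprinted region as Igf2, was lower (log2 difference -2.32, limma adjusted p = 1.28e-05) without DDC and differed by 0.44 ± 0.38 with it, not called. Slc22a18, of that region too, was lower in both comparisons, with log2 differences of -1.03 and -1.77. Peg3 was detected on 3 of 4 Tu_AKTNRAS_DDC arrays and on none of the 4 arrays of Tu_AKTNRAS, nor on any AKT-CAT tumour array with DDC or without treatment.

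Bex4, on the X chromosome, had its highest level in DDC-treated AKT-NRAS tumours, apart from the untreated ones. It read 10.95, 10.30, 11.32 and 10.62 in Tu_AKTNRAS_DDC, against 9.13, 8.31, 8.59 and 7.72 in Tu_AKTNRAS, with no overlap. It was 5.13-fold higher with DDC (log2 2.36 ± 0.51, limma adjusted p = 0.0102) in a comparison in which 1.94% of all genes were called, and 2 of the 6 members, Bex4 and Mdk. The call was lost without Tu_AKTNRAS replicate 4 (adjusted p = 0.0659) or Tu_AKTNRAS_DDC replicate 3 (0.0505). In AKT-CAT tumours Bex4 read 6.21, 6.72, 5.75 and 6.28 with DDC, against 5.22, 8.78, 8.12 and 4.93 without. There the difference was -0.52 ± 0.51 (limma adjusted p = 0.547), and none of the 6 members was called in Tu_AKTCAT_DDC against Tu_AKTCAT (13.3% of all genes). At an unadjusted p under 0.05 limma gave 2 of 6 there, Igf2bp3 (1.16 ± 0.45, adjusted p = 0.0841) and Gpc3 (-1.62 ± 0.72, adjusted p = 0.136).

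The DDC effect on Bex4 differed between the drivers by 2.88 ± 0.72 (limma adjusted p = 0.0235), the 1 such call among 6 members where 3.43% of all genes were called. That call was lost without Tu_AKTCAT_DDC replicate 3, Tu_AKTCAT replicate 2, Tu_AKTNRAS replicate 4 or Tu_AKTNRAS_DDC replicate 3 (adjusted p = 0.053, 0.0539, 0.061 and 0.0522) and with the authors' normalized values (2.76, adjusted p = 0.0771). It was 2.21 without Tu_AKTCAT replicate 2 and 3.49 without replicate 4.

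Bex4 was 23.6-fold higher in Tu_AKTNRAS_DDC than in Tu_AKTCAT_DDC (log2 4.56 ± 0.51, limma adjusted p = 1.53e-08) and 3.20-fold higher in Tu_AKTNRAS than in Tu_AKTCAT (1.68 ± 0.51, limma adjusted p = 0.00979). In the untreated comparison the groups overlapped, and the call was lost without Tu_AKTCAT replicate 1 or 4 (adjusted p = 0.073 and 0.0855). It was 2.35 without Tu_AKTCAT replicate 2 and 1.07 without replicate 4. The second Bex4 probe gave 4.87 ± 0.48 with DDC and 1.88 ± 0.48 without. Over PBS_only, where no array detected it, Bex4 was at least 8.04-fold higher in Tu_AKTNRAS (3.31 ± 0.55, limma adjusted p = 8.44e-06), and over DDC_only (6.30, 7.07 and 6.11) it was 19.8-fold higher in Tu_AKTNRAS_DDC (4.30 ± 0.55, limma adjusted p = 2.67e-07).

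Most relatives of Bex4 were higher in the same tumours. Of 7 tested BEX and TCEAL genes other than Bex4, which lie near each other on the X chromosome and encode small proteins of signalling and transcription, 6 were higher and 0 lower in Tu_AKTNRAS than in Tu_AKTCAT (median log2 difference 1.98, against 0.04 over all genes). Under DDC, 7 were higher (median 2.07, against 0 over all genes), and 6 under median scaling. Tceal5 averaged 9.93 ± 0.38 in Tu_AKTNRAS, against 6.89 ± 1.68 in Tu_AKTCAT and 4.42 ± 0.09 in PBS_only, where it was not detected. Bex3, which encodes a partner of the p75 neurotrophin receptor, averaged 9.93 ± 0.34 in Tu_AKTNRAS and 7.30 ± 1.32 in Tu_AKTCAT (2.64 ± 0.44, limma adjusted p = 1.84e-05). Tceal9 was higher by 2.06 ± 0.26 and Tceal1 by 1.98 ± 0.20, while Bex1 differed by 0.13 ± 0.26 without DDC, not called, and was higher with it (6.23 ± 0.22 against 4.83 ± 0.09, SD; limma adjusted p = 4.97e-05).

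Tceal5 was also higher in DDC_only than in PBS_only (7.97 ± 0.18 against 4.42 ± 0.09, SD; limma adjusted p = 1.15e-05) and in NonTu_AKTCAT_DDC than in NonTu_AKTCAT (8.08 ± 0.61 against 4.67 ± 0.40, SD; limma adjusted p = 2.71e-05). Genes most like Bex4 over the 36 arrays included 2 relatives, Tceal9 (r = 0.88) and Tceal5 (0.88), beside Bmp7, which encodes a growth factor of the bone morphogenetic protein family (0.89).

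**Figure D2:**
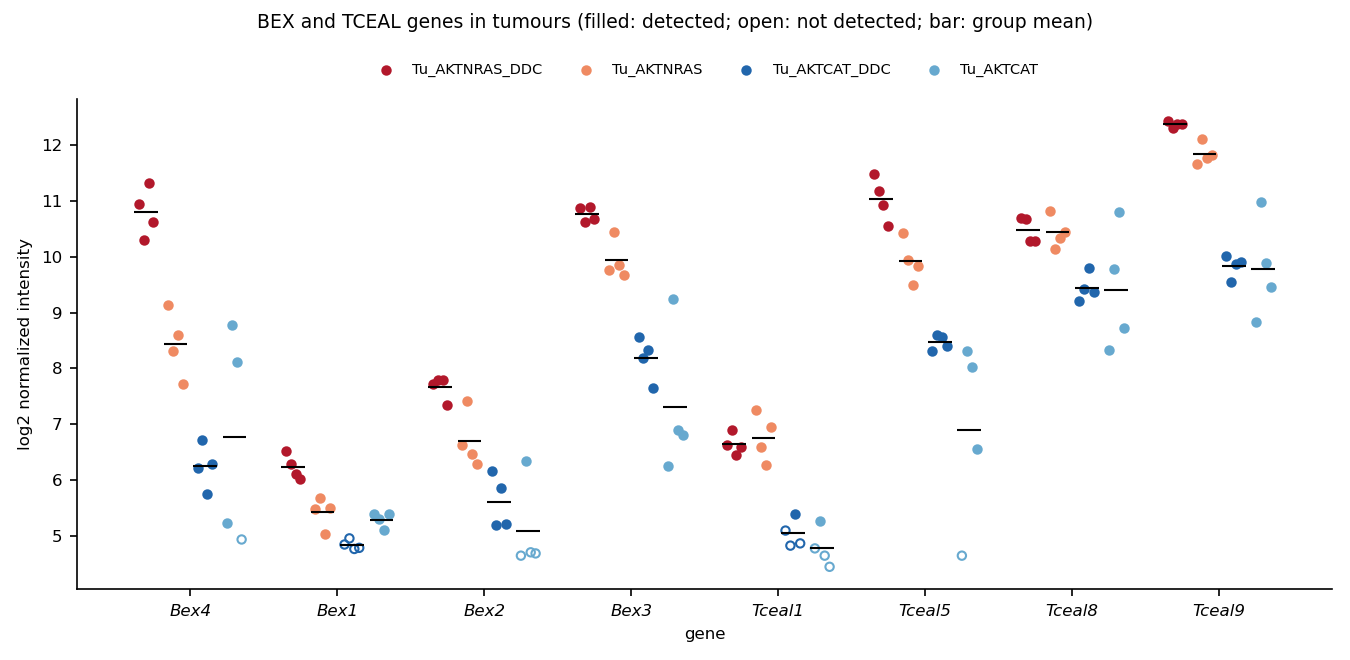
Log2 normalized intensity (vertical axis) of Bex4 and 7 relatives (horizontal axis) on each array of 4 tumour groups, told apart by colour. Points are arrays, filled where detected and open where not, and bars are group means. Bex4 and Bex3 average 10.8 and 10.77 in Tu_AKTNRAS_DDC, above all AKT-CAT arrays, and the Tu_AKTCAT arrays of Bex4, Tceal5 and Bex3 spread the most in that group (SD 1.97, 1.68 and 1.32).

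Genes near the members on the chromosome were counted too, chosen after the values were known as the 5 coding genes on each side of each member in RefSeq order. Over all genes tested, 20.6% were higher and 16.9% lower in Tu_AKTNRAS than in Tu_AKTCAT, and 21% and 18.3% under DDC. Of the 7 tested neighbours of Bex4, 5 were higher and 0 lower in Tu_AKTNRAS than in Tu_AKTCAT, and 6 were higher and 0 lower under DDC. Bex1, Bex2, Tceal5 and Tceal8 among them were already counted as relatives above, so the counts are not separate. Of the rest, Bhlhb9 and Arxes2 were higher in both comparisons and Nxf3 was called in neither. The 7 of Afp held 3 higher and 1 lower in both comparisons, Alb, Afm and Ankrd17 against Cox18. The 5 of Gpc3 held 1 higher (Gpc4), the 4 of Igf2bp3 held 2 higher, the 6 of Igf2 held 2 higher and 1 lower, and the 7 of Mdk held 1 higher and 2 lower, all without DDC. Under DDC the counts were 1 higher and 1 lower for Gpc3 and for Igf2, 2 higher and 0 lower for Igf2bp3, and 1 higher and 4 lower for Mdk.

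Bex4 was called in 4 further comparisons, each of which lost the call without some array, and in each of which the second Bex4 probe was not called. That probe gave 1.05 (limma adjusted p = 0.215) in Tu_AKTCAT against NonTu_AKTCAT, 1.17 (0.0897) in Tu_AKTCAT against PBS_only, -1.30 (0.0859) in Tu_AKTCAT_CCl4 against Tu_AKTCAT and 0.89 (0.282) in NonTu_AKTCAT_DDC against NonTu_AKTCAT. With the probe in use, the Bex4 means after the AKT-NRAS groups were Tu_AKTCAT (6.76), NonTu_AKTCAT_DDC (6.66), DDC_only (6.49) and Tu_AKTCAT_DDC (6.24). Below them came NonTu_AKTCAT_CCl4 (5.76), PBS_only (5.13), NonTu_AKTCAT (4.80) and Tu_AKTCAT_CCl4 (4.69). The arrays of NonTu_AKTCAT_CCl4 did not overlap those of PBS_only, and all other neighbours overlapped. With that probe Bex4 was higher in Tu_AKTCAT (5.22, 8.78, 8.12 and 4.93) than in NonTu_AKTCAT, where no array detected it. The difference was at least 2.52-fold (log2 1.96 ± 0.55, limma adjusted p = 0.0182). That call was lost without Tu_AKTCAT replicate 2 or 3 (adjusted p = 0.0995 and 0.0933) or NonTu_AKTCAT replicate 1 or 3 (0.0685 and 0.0579), and within the 1 slide that held both groups, where Tu_AKTCAT has 1 array, the difference was 0.13. It was higher in Tu_AKTCAT than in PBS_only by at least 2.51-fold (1.64 ± 0.55, limma adjusted p = 0.0238), lost without Tu_AKTCAT replicate 2 or 3 (0.96 and 1.18, adjusted p = 0.151 and 0.11) or PBS_only replicate 1 or 2 (0.0561 and 0.0718).

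Bex4 was at background in Tu_AKTCAT_CCl4 (4.44 to 5.03, not detected) and lower there than in Tu_AKTCAT by at least 2.99-fold (log2 -2.07 ± 0.51, limma adjusted p = 0.0106). This was the 1 call among 6 members in that comparison (8.29% of all genes), and it was lost without Tu_AKTCAT replicate 2 (-1.39, adjusted p = 0.0693). In NonTu_AKTCAT_DDC (7.39, 6.31 and 6.30) it was at least 2.36-fold higher than in NonTu_AKTCAT (1.86 ± 0.59, limma adjusted p = 0.0256). That call was lost without NonTu_AKTCAT_DDC replicate 1 or NonTu_AKTCAT replicate 1 or 3 (adjusted p = 0.133, 0.0812 and 0.0731), and with slide as a block the sign turned (-0.58, adjusted p = 0.864). DDC_only and PBS_only share a slide, and there Bex4 was detected on all 3 DDC_only arrays and on none of PBS_only, without overlap. The difference was not called with either probe (1.37 ± 0.59, limma adjusted p = 0.0941, and 1.49 ± 0.55, 0.0505, with the second).

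Mdk, on chromosome 2, was detected on all 36 arrays with the probe in use (ILMN_3158499). The second tested probe was detected on 26 arrays, ILMN_3079236 on 2 and ILMN_3080012 on none. With the probe in use Mdk was higher in injured than in uninjured liver, and in AKT-NRAS than in AKT-CAT tumours under DDC. In none of the 4 comparisons of tumours with liver without driver genes was Mdk called higher. It read 8.07, 8.31, 10.99 and 9.27 in Tu_AKTNRAS_DDC, against 6.64, 6.78, 6.96 and 7.62 in Tu_AKTCAT_DDC, with no overlap. The difference was 4.47-fold (log2 2.16 ± 0.46, limma adjusted p = 0.000336; 2.34 ± 0.44 with the second probe), and 1.55 without Tu_AKTNRAS_DDC replicate 3. Without DDC, Mdk read 7.83, 7.38, 7.09 and 6.83 in Tu_AKTNRAS, against 6.20, 8.20, 5.52 and 5.63 in Tu_AKTCAT, and the difference of 0.90 ± 0.46 was not called (limma adjusted p = 0.131). It was called without Tu_AKTCAT replicate 2, the highest of its group (1.5, adjusted p = 0.00564), and under median scaling (1.54, adjusted p = 0.00661), which moves the median of all genes to 0.42 in that comparison.

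DDC was accompanied by more Mdk in AKT-NRAS tumours (log2 1.88 ± 0.46, 3.68-fold, limma adjusted p = 0.0258; no overlap), a call lost without Tu_AKTNRAS replicate 3 or 4 (adjusted p = 0.0838 and 0.115), Tu_AKTNRAS_DDC replicate 3 (1.27, 0.181) or replicate 4 (0.0645), and with the second probe (1.63, 0.0509). In liver without driver genes Mdk was 8.76, 8.56 and 8.10 in DDC_only, against 6.59, 6.56 and 6.39 in PBS_only (3.89-fold, 1.96 ± 0.53, limma adjusted p = 0.00777). In non-tumoral AKT-CAT liver it was 7.80, 7.83 and 7.33 with DDC, against 6.54, 6.06 and 5.77 without (1.53 ± 0.53, limma adjusted p = 0.0437). This last call was lost without any 1 NonTu_AKTCAT_DDC replicate (adjusted p = 0.113, 0.107 and 0.0579) or without NonTu_AKTCAT replicate 2 or 3 (0.0997 and 0.127), and with slide as a block the difference was 0.52. With CCl4 it was 8.29, 7.60, 8.53 and 8.55, against the same untreated arrays (4.34-fold, 2.12 ± 0.50, limma adjusted p = 0.00298; 2.24 ± 0.48 with the second probe).

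With this probe Mdk was thus higher in each of 3 injured livers than in its uninjured counterpart, in arrays that did not overlap. The second probe was called only under CCl4, and gave 1.29 ± 0.51 (limma adjusted p = 0.0671) in DDC_only against PBS_only and 0.83 ± 0.51 (limma adjusted p = 0.274) in NonTu_AKTCAT_DDC against NonTu_AKTCAT. With the probe in use, the highest Mdk group means were Tu_AKTNRAS_DDC (9.16), DDC_only (8.47), NonTu_AKTCAT_CCl4 (8.24), NonTu_AKTCAT_DDC (7.65) and Tu_AKTNRAS (7.28). Below them came Tu_AKTCAT_CCl4 (7.08), Tu_AKTCAT_DDC (7.0), PBS_only (6.51), Tu_AKTCAT (6.39) and NonTu_AKTCAT (6.12). Of neighbours in this order only Tu_AKTCAT_DDC and PBS_only did not overlap. Tu_AKTCAT_DDC was lower than DDC_only (log2 difference -1.47, limma adjusted p = 0.0412), lost without any 1 DDC_only replicate (adjusted p = 0.122, 0.114 and 0.0599) or Tu_AKTCAT_DDC replicate 1, 2 or 3 (0.109, 0.0717 and 0.077) and with the second probe (-1.26, 0.0698). Mesothelial markers rose with Mdk under CCl4, as given beside Gpc3. In DDC_only against PBS_only, summed intensities were 15300 to 20900 against 3930 to 5910 for mesothelial markers, 7760 to 8980 against 1630 to 3090 for biliary and progenitor markers, 14000 to 16900 against 7380 to 8080 for stellate and fibroblast markers, and 1200 to 2800 against 309 to 318 for proliferation markers. Mesothelial markers summed to 12600 to 19200 in NonTu_AKTCAT_DDC, against 2590 to 4820 in NonTu_AKTCAT. The mesothelial list holds 5 tested genes, the keratin gene Krt8 among them, of which 3 were detected in DDC_only and 2 in PBS_only. Such sums do not tell which of these genes they rest on, so they need not reflect mesothelial cells. The part of these markers in the Mdk values was not tested.

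Of 10 tested genes of the midkine family and its receptors other than Mdk, 2 were higher and 0 lower in Tu_AKTNRAS than in Tu_AKTCAT, and 4 were higher under DDC. Itga6, an integrin subunit, averaged 6.72 ± 0.40 in Tu_AKTNRAS, against 5.28 ± 0.60 in Tu_AKTCAT (1.44 ± 0.23, limma adjusted p = 1.07e-05), and 6.39 ± 0.32 in Tu_AKTNRAS_DDC, against 4.70 ± 0.23 in Tu_AKTCAT_DDC, where no array detected it. Lrp1, a receptor of midkine, was higher under DDC by 0.76 ± 0.22 (limma adjusted p = 0.00574) and differed by 0.01 ± 0.22 without it. Ncl, which encodes nucleolin at the cell surface and in the nucleolus, differed by -0.15 ± 0.19 and -0.18 ± 0.19, neither called. The sister gene Ptn, pleiotrophin, was near background on most arrays. Genes most like Mdk over the 36 arrays were Fam171b (r = 0.78), Mxra7 (0.74) and Thsd4 (0.71). Their r was 0.91, 0.46 and 0.64 over the 8 AKT-NRAS arrays alone.

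Igf2bp3, on chromosome 6, had another order, with its highest group means in DDC-treated AKT-CAT liver and not in AKT-NRAS tumours. It read 8.39, 8.68, 8.23 and 8.43 in Tu_AKTCAT_DDC and 7.83, 7.97 and 8.28 in NonTu_AKTCAT_DDC. It read 8.90, 7.38, 6.29 and 7.15 in Tu_AKTNRAS_DDC and 7.04, 7.74, 5.62 and 6.70 in Tu_AKTNRAS. It was detected on no array of PBS_only or NonTu_AKTCAT_CCl4 and on 1 of 3 arrays of NonTu_AKTCAT. The group means ran from Tu_AKTCAT_DDC (8.43), NonTu_AKTCAT_DDC (8.03), Tu_AKTNRAS_DDC (7.43), Tu_AKTCAT (7.27), Tu_AKTCAT_CCl4 (6.98), Tu_AKTNRAS (6.78) and DDC_only (6.19) to NonTu_AKTCAT (5.08), NonTu_AKTCAT_CCl4 (4.69) and PBS_only (4.57), and the gap after DDC_only was the 1 place where neighbours did not overlap.

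Tumours expressed more Igf2bp3 than non-tumoral liver without treatment and under CCl4. It read 5.77, 7.31, 8.44 and 7.57 in Tu_AKTCAT, against 4.56, 5.01 and 5.66 in NonTu_AKTCAT (4.57-fold, log2 2.19 ± 0.49, limma adjusted p = 0.00272). With slide as a block the difference was 2.49 and no longer called (adjusted p = 0.0682). It read 6.79, 7.13, 7.83 and 6.15 in Tu_AKTCAT_CCl4, against 4.48 to 4.85 in NonTu_AKTCAT_CCl4 (at least 2.87-fold, 2.28 ± 0.45, limma adjusted p = 0.000516). The groups did not overlap in either pair, and the second probe gave 1.78 ± 0.45 and 1.35 ± 0.42, both called. Under DDC the tumour and non-tumoral arrays differed by 0.41 ± 0.49 (limma adjusted p = 0.677), where the non-tumoral arrays were themselves high. The change of the tumour effect under DDC was -1.79 ± 0.69 and not called (limma adjusted p = 0.165).

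Against liver without driver genes, Igf2bp3 was higher in Tu_AKTCAT by at least 3.57-fold (2.70 ± 0.49, limma adjusted p = 9.52e-05), in Tu_AKTNRAS by at least 2.54-fold (2.21 ± 0.49, limma adjusted p = 0.000343) and in Tu_AKTCAT_DDC by 4.75-fold (2.25 ± 0.49, limma adjusted p = 0.00155). For Tu_AKTNRAS_DDC over DDC_only it was 1.25 ± 0.49 (limma adjusted p = 0.0429), lost without any 1 DDC_only replicate (adjusted p = 0.0807, 0.157 and 0.0525) or Tu_AKTNRAS_DDC replicate 1 (0.76, 0.222) or 2 (0.0624), and with the second probe (1.07, 0.0646). Within non-tumoral AKT-CAT liver it was 7.72-fold higher with DDC than without (2.95 ± 0.52, limma adjusted p = 0.000111). In liver without driver genes the DDC_only arrays read 6.27, 5.78 and 6.51, at least 1.69-fold above the undetected PBS_only arrays (1.61 ± 0.52, limma adjusted p = 0.0231). That call was lost without DDC_only replicate 1 or 3 (adjusted p = 0.0584 and 0.0896) or PBS_only replicate 2 or 3 (0.0705 and 0.0532), and with the second probe (0.93, 0.178).

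The drivers did not differ in Igf2bp3 at the threshold. The difference was -0.49 ± 0.45 in Tu_AKTNRAS against Tu_AKTCAT (limma adjusted p = 0.414; 0.17 under median scaling) and -1.0 ± 0.45 in Tu_AKTNRAS_DDC against Tu_AKTCAT_DDC (limma adjusted p = 0.0785). The second of these was called without Tu_AKTNRAS_DDC replicate 1, the highest array (-1.49, adjusted p = 0.00733), and under median scaling (adjusted p = 0.0422). Genes most like Igf2bp3 over the 36 arrays were Gars, the glycyl-tRNA synthetase gene (r = 0.89), Fchsd1 (0.86) and Ydjc (0.86). Their r was 0.36, 0.15 and 0.04 over the 8 AKT-NRAS arrays alone. Gars averaged 13.78 ± 0.10 in Tu_AKTCAT_DDC, against 12.87 ± 0.13 in DDC_only, and 11.88 ± 0.17 in PBS_only was its lowest group mean. Igf2bp3 is a target of the let-7 microRNAs, and of 5 other tested genes of the LIN28 and let-7 axis 1 was higher and 1 lower in AKT-NRAS than in AKT-CAT tumours, with DDC and without. Lin28a, Lin28b, Hmga2 and Igf2bp1 were not among the genes tested.

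Dlk1 (ILMN_1244618, chromosome 12) read 4.36 to 5.02 over the 36 arrays and was detected on none, so no difference in it was detectable with this probe. Dlk1 is related to the Notch ligands, and of 11 tested Notch ligands, receptors and targets 4 were higher and 0 lower in Tu_AKTNRAS than in Tu_AKTCAT, and 5 were higher under DDC. Jag1, the ligand that directs bile duct formation, averaged 7.22 ± 0.24 in Tu_AKTNRAS, against 4.61 ± 0.16 in Tu_AKTCAT, where no array detected it (SD, n = 4 each; limma adjusted p = 3.17e-12). Nrarp, a feedback target of Notch, was higher by 2.29, and Hes1, another target, was higher under DDC by 1.92 ± 0.44.

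**Figure D3:**
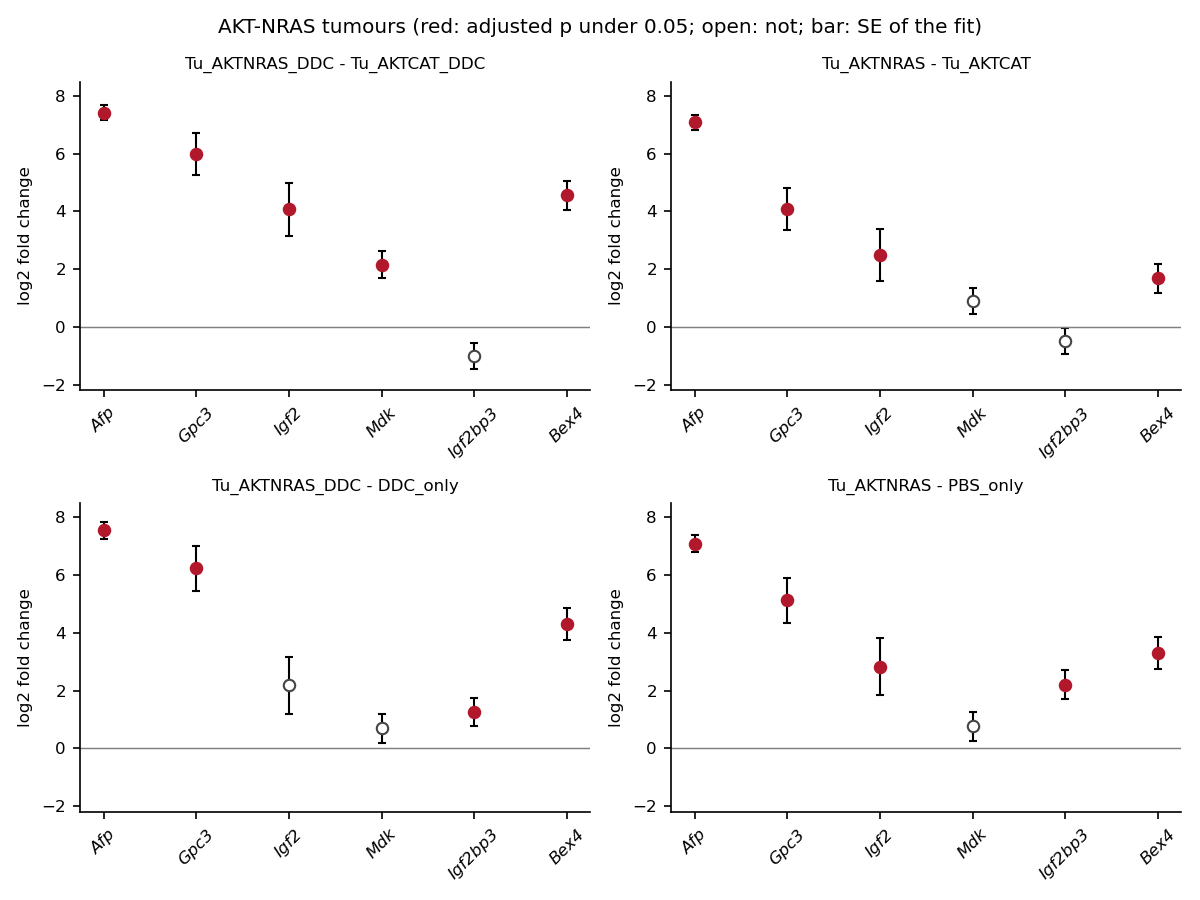
Log2 fold change of 6 genes (horizontal axis) in AKT-NRAS tumours over AKT-CAT tumours (upper panels) and over liver without driver genes (lower panels), with DDC (left) and without (right). Points are fitted values and bars their SE, red where the adjusted p is under 0.05 and open where not. Afp, which no array of AKT-CAT tumours or of liver without driver genes detected, has the highest fitted value in each panel, and Igf2bp3 lies below 0 against AKT-CAT tumours and above 0 against liver without driver genes.

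Within the 8 AKT-NRAS arrays the members did not move as 1 block. Tu_AKTNRAS_DDC replicate 1 lay above the mean of the 8 arrays by 4.89 in Igf2, 1.80 in Igf2bp3, 1.52 in Afp, 1.33 in Bex4 and 0.91 in Gpc3, and by -0.15 in Mdk. Tu_AKTNRAS_DDC replicate 3 was the highest array in Mdk (2.77 above the mean) and lay at -1.87 in Igf2. Tu_AKTNRAS replicate 4 was the lowest in Igf2, at -2.88. Gpc3, apart from the first array, stayed within a narrow band.

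**Figure D4:**
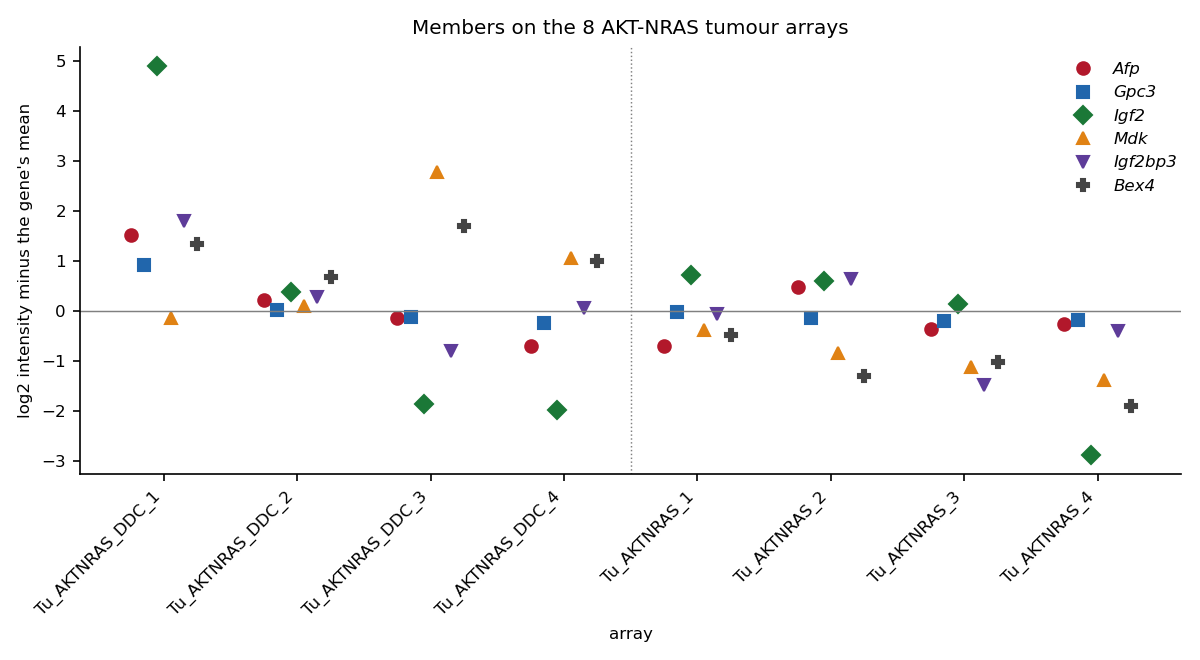
Log2 intensity of 6 genes on each of the 8 AKT-NRAS arrays (horizontal axis), given as the difference from the gene's own mean over these 8 arrays (vertical axis). The dotted line divides arrays with DDC (left) from those without (right). Igf2 spreads from 4.89 to -2.88, and Bex4 is above 0 on the 4 arrays with DDC and below 0 on the other 4.

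Other lists gave the setting of these values. Of 19 further oncofetal and fetal hepatocyte genes that were tested, 9 were higher and 1 lower in Tu_AKTNRAS than in Tu_AKTCAT. Under DDC 9 were higher and 2 lower. The shares over all genes were 20.6% higher and 16.9% lower, and 21% and 18.3% under DDC. Tspan8, a tetraspanin gene of gut and tumours, was higher by 6.05 ± 0.72 without DDC and 7.27 ± 0.72 with it, and Spink1, which encodes a trypsin inhibitor, by 4.48 ± 0.49 and 3.46 ± 0.49. Of 22 tested genes of adult hepatocytes, Alb and Serpina1a among them, 5 were higher and 8 lower in Tu_AKTNRAS than in Tu_AKTCAT, and 7 each under DDC. Not all genes of this list are confined to the time after birth. Cyp7a1, the rate-limiting enzyme of bile acid synthesis, was lower, with log2 differences of -5.91 without DDC and -7.44 with it, while Serpina1a, whose probe may read near-identical relatives, was higher by 1.17 ± 0.41 and 4.74 ± 0.41. Beside these, 4 of 10 biliary and progenitor markers were higher in Tu_AKTNRAS, with a summed intensity of 17300 to 19600 in Tu_AKTNRAS_DDC and 9870 to 15000 in Tu_AKTNRAS, against 3830 to 6350 in Tu_AKTCAT_DDC, 2510 to 7830 in Tu_AKTCAT and 1630 to 3090 in PBS_only. Stellate and fibroblast markers summed to 14300 to 20900 in Tu_AKTNRAS, against 6830 to 9220 in Tu_AKTCAT, and 9 of 15 were higher. The part of these cell types in the levels of Afp, Gpc3, Igf2, Mdk and Bex4 was not tested.

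Within AKT-CAT liver and liver without driver genes fewer members were called. In Tu_AKTCAT against NonTu_AKTCAT, Igf2bp3 and Bex4 were higher, 2 of 6 members against 11.2% of all genes. Under DDC limma called 0 of 6, also at an unadjusted p under 0.05, against 5.77% of all genes, and under CCl4 it was Igf2bp3, 1 of 6 against 15.2%. At an unadjusted p under 0.05, 4 of 6 passed under CCl4, the other 3 with log2 differences of -1.65 ± 0.72 (Gpc3), -1.16 ± 0.46 (Mdk) and -1.07 ± 0.51 (Bex4). A fit on these 2 groups alone called Igf2 (-1.49, adjusted p = 0.00855), Mdk (0.0293) and Bex4 (0.00901) lower. Against PBS_only, Tu_AKTCAT had 2 of 6 higher, Igf2bp3 and Bex4, where 30.1% of all genes were called, and NonTu_AKTCAT had 0 of 6, unadjusted too, where 15.1% were. Tu_AKTCAT_DDC against DDC_only had Igf2bp3 higher and Mdk lower, 2 of 6 against 16.3%.

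Injured livers set against their untreated counterparts gave 3 of 6 members higher in NonTu_AKTCAT_DDC than in NonTu_AKTCAT (Mdk, Igf2bp3 and Bex4; 18.1% of all genes), 2 of 6 in NonTu_AKTCAT_CCl4 than in NonTu_AKTCAT (Mdk and Gpc3; 19%) and 2 of 6 in DDC_only than in PBS_only (Mdk and Igf2bp3; 22.7%). The first 2 comparisons share their untreated arrays. The DDC effect in liver without driver genes was not found to differ from that in non-tumoral AKT-CAT liver for any of the 6 members, at an unadjusted p under 0.05 either (15.2% of all genes called). The tumour effect was not found to change under DDC (limma, 0 of 6, and 2 of 6 at an unadjusted p under 0.05; 3.46% of all genes) or under CCl4 (0 of 6, and 3 unadjusted; 0.139%). Under CCl4 the estimates were -3.49 ± 1.06 for Gpc3 (limma adjusted p = 0.24) and -3.02 ± 0.75 for Bex4 (limma adjusted p = 0.118). Both of those genes had read high in some untreated AKT-CAT tumours.

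**Figure D5:**
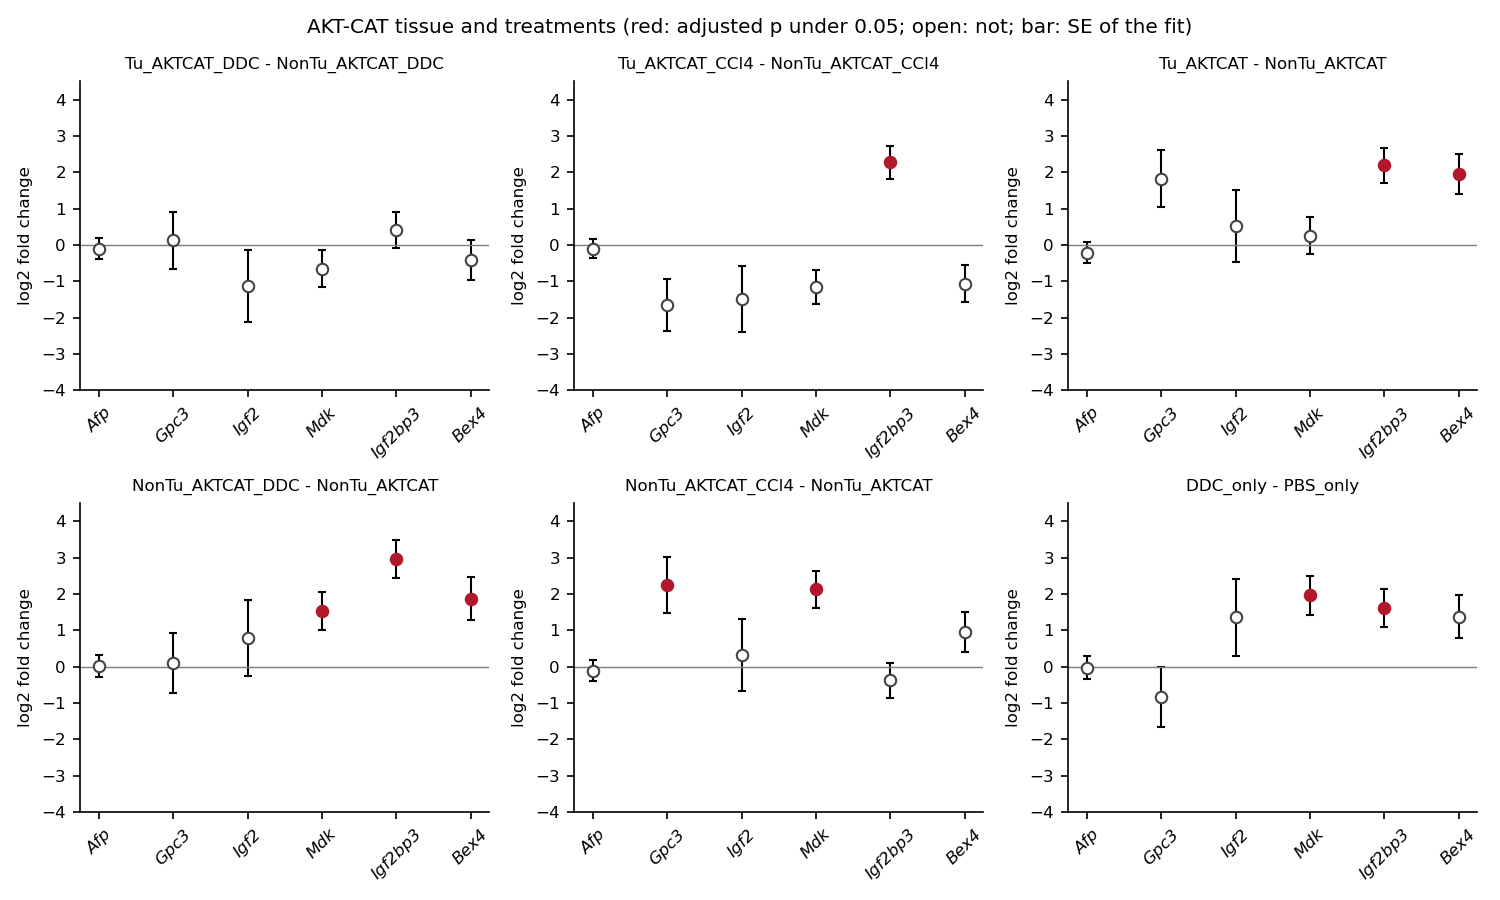
Log2 fold change of 6 genes (horizontal axis) in AKT-CAT tumours over non-tumoral liver under DDC, under CCl4 and untreated, and in DDC or CCl4 liver over its untreated counterpart. Points are fitted values and bars their SE, red where the adjusted p is under 0.05 and open where not. Igf2bp3 is red in the CCl4 and untreated tumour panels, Mdk in the 3 injury panels, and Afp in none.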

How the data were processed

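Total RNA of mouse liver was extracted with an RNeasy kit, amplified and labelled as cRNA with biotin, per the labels' protocols, and GenomeStudio (version not stated) is named in the submitters' processing notes. The authors deposited raw bead intensity values, of which 24.8% to 30.2% per array were below 0. The detection p-value of each probe was deposited by the authors beside its intensity. The authors' normalized intensity values, deposited on a linear scale without a stated method, served as an alternative after a floor of 16 and log2.

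Intensities were normalized with limma 3.58.1 neqc in R 4.3.3 (offset 16, negative controls inferred from the detection p-values). Probes with a detection p under 0.05 on at least 3 of 36 arrays were kept (14754 probes), and the probe of highest mean stood for a gene (10765 genes). The 20 contrasts of 1 fit over 10 groups, read from the labels, were tested two-sided. Where no array of the lower group detected a probe, a bound ("at least") was computed with that group's arrays raised to their lowest detected intensity. Such a bound holds only at the offset of 16. At an offset of 50 the fitted folds of Afp, and some of Bex4 and Igf2bp3, lay below their bounds. The number of arrays limits the precision. Figures were drawn with Python 3.11.15 and matplotlib 3.10.9.

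The 8 genes are always named. From a list, up to 4 genes a comparison were named by size among called genes, partners and family also with other values, and the 3 genes of highest Pearson r were named for each member. Members and lists were chosen with earlier results of these data known. The script was tested on simulated data. Alternatives were median scaling, an offset of 50, the authors' normalized values, no detection filter, the mean of probes, a trended variance prior, only the compared groups, slide as a block, the replicate block and each replicate left out, and, chosen after seeing the data, slide as a random block. Slide was read from the files' column names. Replicate numbers were not taken to pair the samples, since in no comparison did every same-numbered pair deviate together (r over 0.1). This rule cannot exclude pairing. The r ran from 0.01 to 0.24 in Tu_AKTCAT against NonTu_AKTCAT and from -0.16 to 0.35 in Tu_AKTCAT_DDC against NonTu_AKTCAT_DDC.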

Additional observations from a re-analysis of the deposited data

Results flagged for a closer look

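Within their groups of 4 arrays, 2 Igf2 values stood far from the others by Dixon's test, which was run for 36 combinations of gene and group and by chance marks about 1 in 20. In Tu_AKTCAT, replicate 2 read 9.45 and the nearest of the other arrays 6.53 (gap over range 0.849). In Tu_AKTNRAS, replicate 4 read 7.01 and the nearest of the others 10.03 (0.84). The DDC effect on Bex4 differed between the drivers by 2.88 on the log2 scale, in a direct test of that difference, with DDC minus no DDC at 2.36 in AKT-NRAS tumours and -0.52 in AKT-CAT tumours.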

How the results depend on the processing

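Of 36 called values of members, 20 kept their call under all alternatives that keep the probe or average the probes, and over 612 alternative values 517 kept it, 94 lost it and 1 turned, Bex4 in NonTu_AKTCAT_DDC against NonTu_AKTCAT with slide as a block (-0.58). Of 84 values not called, 29 of 1608 alternatives were past the threshold. Afp and Gpc3 kept their 8 calls in AKT-NRAS tumours under all alternatives run. Slide as a block was not among these, since the AKT-NRAS arrays share no slide with other groups and the difference cannot be estimated. Afp passed the detection filter through its AKT-NRAS arrays alone, so its calls were bound to come. The cause of the changes was not tested, except that fits on only the compared groups hold fewer arrays. Median scaling moved the median of all genes by -0.23 to 0.5 (0.42 in Tu_AKTNRAS against Tu_AKTCAT). Taken alone, the second tested probe of Gpc3, Mdk, Igf2bp3 or Bex4 was called in 18 of 29 values and not in 11. An offset of 50 moved 17 called folds by over 1.5 times, slide as a block 5, the authors' normalized values 4 and median scaling 3.

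Counts of members called changed as follows. Median scaling gave 1 in Tu_AKTCAT_DDC against DDC_only, in Tu_AKTCAT_DDC against Tu_AKTCAT, in Tu_AKTNRAS_DDC against Tu_AKTNRAS and in NonTu_AKTCAT_CCl4 against NonTu_AKTCAT. An offset of 50 gave 1 in DDC_only against PBS_only and in NonTu_AKTCAT_DDC or NonTu_AKTCAT_CCl4 against NonTu_AKTCAT. The authors' normalized values gave 1 in Tu_AKTCAT_DDC against DDC_only and 0 for the difference of DDC effects between drivers. No detection filter gave 1 in Tu_AKTCAT_DDC against DDC_only and in NonTu_AKTCAT_CCl4 against NonTu_AKTCAT. The mean of probes gave 1 in Tu_AKTCAT against NonTu_AKTCAT, DDC_only against PBS_only and NonTu_AKTCAT_DDC against NonTu_AKTCAT. Fits on only the compared groups gave 0 in Tu_AKTCAT against NonTu_AKTCAT, 4 in Tu_AKTCAT_CCl4 against NonTu_AKTCAT_CCl4, 1 in Tu_AKTCAT against PBS_only, 2 in Tu_AKTNRAS against Tu_AKTCAT, 1 in Tu_AKTNRAS_DDC against Tu_AKTNRAS, 0 in Tu_AKTCAT_CCl4 against Tu_AKTCAT, 4 in DDC_only against PBS_only, 1 in NonTu_AKTCAT_CCl4 against NonTu_AKTCAT, 0 for the difference of DDC effects between drivers and 1 for that between liver without drivers and non-tumoral liver. Slide as a block gave 0 in Tu_AKTCAT against NonTu_AKTCAT (0 within the shared slide), and 1 in Tu_AKTCAT_DDC against DDC_only and in NonTu_AKTCAT_DDC against NonTu_AKTCAT. Slide as a random block changed no call (correlation -0.00984). With most groups on 1 slide each, the group terms take up differences between slides, so this fit could not show them.

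With the replicate block the count was 1 in Tu_AKTCAT_DDC against DDC_only, where 2 had been called, and 2 in NonTu_AKTCAT_DDC against NonTu_AKTCAT, where 3 had been; Mdk lost its call in both (adjusted p = 0.0593 and 0.0556). The numbers were not shown to pair the samples.

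Without 1 replicate at a time the counts ranged from 1 to 3 in Tu_AKTCAT against NonTu_AKTCAT and against PBS_only, 1 to 2 in Tu_AKTCAT_CCl4 against NonTu_AKTCAT_CCl4, Tu_AKTCAT_DDC against DDC_only, DDC_only against PBS_only and both treated against untreated non-tumoral livers, 2 to 5 in Tu_AKTNRAS against Tu_AKTCAT, 5 to 6 in its DDC counterpart, 0 to 1 in Tu_AKTCAT_DDC and Tu_AKTCAT_CCl4 against Tu_AKTCAT and for the difference of DDC effects between drivers, and 0 to 2 in Tu_AKTNRAS_DDC against Tu_AKTNRAS and for the change of the tumour effect under DDC or CCl4. Low signal limits Dlk1, and Afp outside AKT-NRAS tumours, to bounds.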
